A study of Canis lupus familiaris with 8 samples.

Results

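Glycolysis and the hypoxia-inducible factor (HIF) pathway were described here through 36 genes chosen by name: the HIF factors and their oxygen sensors, the glucose and lactate transporters, the enzymes of glycolysis, and a set of HIF target genes. Of these, 33 had a row of their own among the 30424 genes of the expression table, VHL shared a row with IRAK2, and PGAM1 and BNIP3L were not analysed here. Their transcripts were measured in 8 RNA-seq libraries and are given as TPM, an abundance corrected for transcript length and for the library total. The dog cell line JuB2 stems from a hemangiosarcoma, a blood vessel tumour. In 3 libraries, named shA, JuB2 cells were labelled as carrying a short hairpin RNA (shRNA) that knocks down KDM2B. In 3, named scr1, they carried a scramble shRNA, a control hairpin. A single library came from cells labelled EC (source CnAOEC), untreated normal endothelial cells of the dog, and another from untreated JuB2. KDM2B is a histone lysine demethylase, and by its title the series asks about its bearing on viability and the response to DNA damage. A single tumour line and 1 hairpin of each kind were used. The labels give no oxygen level, cell density or time after the hairpin was introduced, and do not say whether replicates were cultured separately, so the p-values reflect only how these libraries varied, which may be technical.

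HIF is a pair of proteins, an oxygen-regulated alpha subunit (HIF1A or EPAS1, also called HIF-2 alpha) and the stable partner ARNT. When oxygen is present, the prolyl hydroxylases EGLN1, EGLN2 and EGLN3 mark the alpha subunit, VHL binds the mark, and the subunit is destroyed, so the transcript of HIF1A is not a measure of HIF activity. Stabilised HIF raises transcription of glucose transporters, most glycolytic enzymes, LDHA, PDK1 and genes such as ADM, and the work that established this was done mainly in human and mouse cells. Endothelial cells are known for a high reliance on glycolysis, and EPAS1 is abundant in them.

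KDM2B itself was at 20.9, 19.7 and 18.2 TPM across the libraries labelled KDM2B shRNA, against 14, 15 and 12.9 TPM in scramble. All the libraries labelled KDM2B shRNA lay above all scramble libraries, which goes against the label (difference in log2(TPM + 1) 0.46 ± 0.11 (SE), limma adjusted p = 0.0101). KDM2B in untreated JuB2, at 17.65 TPM, lay above all scramble libraries and below all those labelled KDM2B shRNA. Its paralog KDM2A was at 37, 29.6 and 30.3 TPM across the libraries labelled KDM2B shRNA, against 13.3, 11.7 and 13.3 TPM in scramble, and how reads shared by both genes were assigned is not given in the sources used here. Directions below compare libraries by their labels, without a measured drop of the KDM2B transcript. The genes listed above 0 numbered 13421, 13387 and 13452 in the libraries labelled KDM2B shRNA and 12699, 12773 and 12684 in scramble, and the part of this gap in the results was not tested. The depth in reads is unknown, since TPM does not carry it. The 13 mitochondrially encoded genes held 11.3%, 12.2% and 12.6% of the TPM across the libraries labelled KDM2B shRNA and 17.3%, 18.2% and 18.9% in scramble, and the median gene tested was 0.16 higher on the log2 scale in the libraries labelled KDM2B shRNA. The part of that share in the members' differences was not tested. With trimmed-mean scaling between libraries that median was 0.02, so each difference is given below as deposited and, where it matters, with trimmed-mean scaling too. In bulk RNA, fewer cells that express a gene and less RNA per cell cannot be told apart.

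In the libraries labelled KDM2B shRNA, the lactate carriers SLC16A1 and SLC16A3, the enzymes HK2, PFKM, ALDOC, GAPDH and LDHA, the regulator PFKFB3 and the oxygen sensor EGLN2 rose under each scaling tried, while the pyruvate dehydrogenase kinase PDK1, the oxygen sensor EGLN1, ARNT and NDRG1 fell. Of the 16 glycolytic enzymes and regulators from hexokinase to pyruvate kinase, ENO2 passed the filter on low values only through the libraries labelled KDM2B shRNA. Without it 9 of 15 rose and 0 fell as deposited (60% and 0%, against 33.3% and 17.6% of all genes tested). With trimmed-mean scaling 5 of the 15 rose and 3 fell (33.3% and 20%, against 24.6% and 23.8% of all genes). Of the 33 members tested, 19 rose, 4 fell and 10 did not pass (limma adjusted p under 0.05 over the 11485 genes tested). Those are 57.6% and 12.1% of the members, against 33.3% and 17.6% of all genes tested that rose and fell. SLC2A3 and ENO2 passed the filter on low values only through the libraries labelled KDM2B shRNA, and so had to be higher there; without them 17 of 31 rose and 4 fell. The members' median difference was 0.25 on the log2 scale, and 0.22 without SLC2A3 and ENO2, beside 0.16 for all genes. With trimmed-mean scaling 12 members rose and 8 fell, against 24.6% and 23.8% of all genes, and the members' median was 0.11. Without SLC2A3 and ENO2, 10 of 31 rose and 8 fell (32.3% and 25.8%) with that scaling, and the median was 0.07. Under each of the 4 scalings tried (as deposited, trimmed mean, quantile, and without the mitochondrially encoded genes), the same 10 members rose and the same 4 fell, that is 30.3% and 12.1% of the members against 23.3% and 17.6% of the 11444 genes tested under each of them. Without SLC2A3 and ENO2 these were 9 and 4 of 31, or 29.0% and 12.9%. The 10 were EGLN2, SLC2A3, SLC16A1, SLC16A3, HK2, PFKM, PFKFB3, ALDOC, GAPDH and LDHA, and the 4 were ARNT, EGLN1, PDK1 and NDRG1. The groups did not overlap for 23 members (69.7%), and for 21 of 31 (67.7%) without SLC2A3 and ENO2, against 59.3% of all genes tested.

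**Figure D1:**
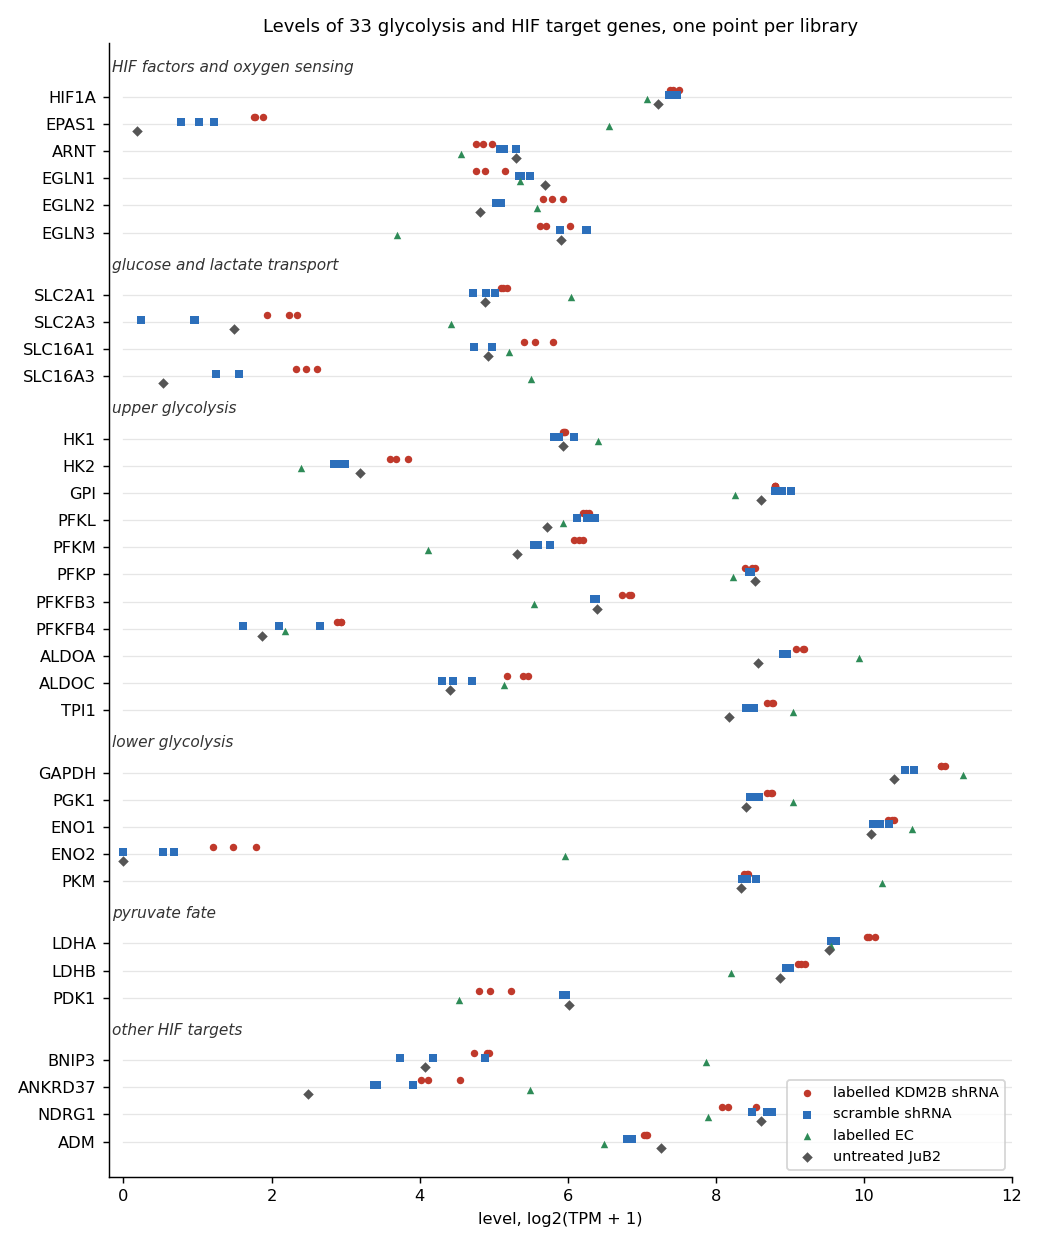
Level of each of the 33 members on the log2(TPM + 1) scale, 1 point per library, with genes grouped by role and groups by colour and symbol. The red circles (labelled KDM2B shRNA) lie right of all blue squares (scramble) for genes such as HK2, ALDOC and LDHA and left of them for PDK1 and EGLN1. EPAS1, ENO2, SLC16A3 and BNIP3 lie far to the right in the library labelled EC.

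**Figure D2:**
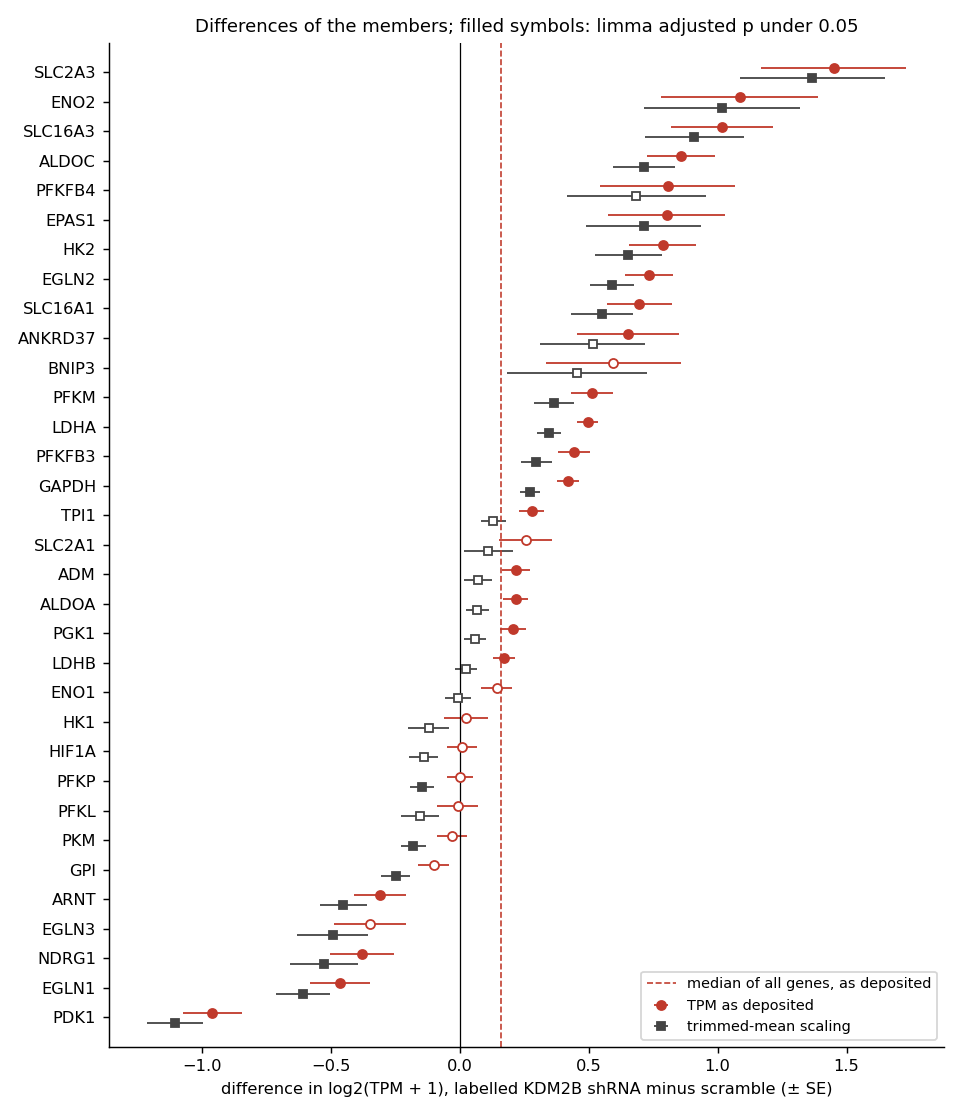
Difference of each member in log2(TPM + 1), libraries labelled KDM2B shRNA minus scramble, with its SE, as deposited (circles) and with trimmed-mean scaling (squares). Filled symbols passed limma's adjusted threshold, and the dashed line is the median of all genes tested, at 0.16. Rescaling moves the points left by about the distance of that line from 0, which leaves ALDOA, PGK1, LDHB and ADM open-symbolled near 0.

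Among the HIF factors, the abundant alpha subunit HIF1A did not pass the test, EPAS1 rose at a low level and ARNT fell. HIF1A was at 180.0, 165 and 171 TPM across the libraries labelled KDM2B shRNA, against 165, 176 and 173 TPM in scramble. The groups overlapped (difference 0.01 ± 0.06 (SE) on the log2 scale, limma adjusted p = 0.933). EPAS1, the second alpha subunit, was listed at 2.41, 2.68 and 2.4 TPM across the libraries labelled KDM2B shRNA, against 1.02, 1.33 and 0.71 TPM in scramble. All libraries labelled KDM2B shRNA were above all scramble libraries, at a low level in every JuB2 library, and EPAS1 rose by 0.80 ± 0.23 (limma adjusted p = 0.0205). This call was lost with quantile normalization (adjusted p = 0.10) and when scramble library 3 or any library labelled KDM2B shRNA was left out (adjusted p between 0.0557 and 0.0681). ARNT, the shared partner, was at 30.5, 27.9 and 26 TPM across the libraries labelled KDM2B shRNA, against 38.3, 32.9 and 34.1 TPM in scramble. It fell without overlap, by 0.31 ± 0.10 on the log2 scale (limma adjusted p = 0.0352), but the call was lost without scramble library 1 or 3 or without library 2 or 3 labelled KDM2B shRNA (adjusted p between 0.0653 and 0.109).

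Of the oxygen sensors, EGLN1 fell and EGLN2 rose. EGLN1, the hydroxylase that sets HIF1A turnover in most cells, was at 34.6, 28.6 and 26.2 TPM across the libraries labelled KDM2B shRNA, against 44, 40.2 and 39.5 TPM in scramble. Every library labelled KDM2B shRNA was below every scramble library, and EGLN1 fell to 0.722 of the scramble mean (difference -0.46 ± 0.12 (SE), limma adjusted p = 0.0122). EGLN2, which is the hydroxylase least tied to hypoxia, was at 60.5, 49.6 and 54.1 TPM across the libraries labelled KDM2B shRNA, against 33.3, 31.5 and 32.4 TPM in scramble. It was higher in all libraries labelled KDM2B shRNA, by 0.73 ± 0.09 (limma adjusted p = 0.000555), and by 0.59 with trimmed-mean scaling. EGLN3, itself a HIF target, was at 64.6, 51 and 48.3 TPM across the libraries labelled KDM2B shRNA, against 58.6, 75.8 and 74.7 TPM in scramble. Library 1 labelled KDM2B shRNA lay inside the scramble range, and the difference of -0.35 ± 0.14 did not pass (limma adjusted p = 0.0722), although it did with each of the other scalings (adjusted p between 0.0216 and 0.034) and without scramble library 1 or library 1 labelled KDM2B shRNA (0.0275 and 0.0245). Summed over the family, EGLN3 made up 39.2% ± 1.5% of the EGLN transcripts in the libraries labelled KDM2B shRNA and 48.5% ± 4.65% in scramble (SD, n = 3 each).

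The row that VHL shares with IRAK2 cannot be split between both genes, which neighbour each other in the RefSeq gene table of the assembly UU_Cfam_GSD_1.0. VHL is the substrate receptor that destroys hydroxylated HIF alpha, and IRAK2 is a kinase of Toll-like receptor signalling. The row was at 30.3, 41.9 and 38.5 TPM across the libraries labelled KDM2B shRNA, against 11.3, 10.5 and 7.62 TPM in scramble. It was higher in each library labelled KDM2B shRNA, by 1.82 ± 0.18 (limma adjusted p = 0.000173), and it is counted with neither gene.

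Of the 4 transport genes, SLC16A1 and SLC16A3 rose, SLC2A1 did not pass, and SLC2A3 passed the filter only through the libraries labelled KDM2B shRNA. SLC2A1 (GLUT1), the main glucose importer of most cultured cells, was at 35.2, 33.3 and 33.8 TPM across the libraries labelled KDM2B shRNA, against 28.9, 31.5 and 25.3 TPM in scramble. The groups did not overlap, but the difference of 0.25 ± 0.10 (SE) did not pass (limma adjusted p = 0.0696). It passed only without scramble library 2 (adjusted p = 0.0453), and with trimmed-mean scaling it was 0.11. SLC2A3 (GLUT3), a high-affinity glucose importer, was listed at 4.08, 3.69 and 2.83 TPM across the libraries labelled KDM2B shRNA, against 0.94, 0.95 and 0.18 TPM in scramble. All 3 libraries labelled KDM2B shRNA held more than any scramble library, and the difference was 1.45 ± 0.28, a description without a test, since the filter fixed its direction. SLC16A1 (MCT1), a carrier that moves lactate in either direction, was at 54.9, 46.3 and 41.5 TPM across the libraries labelled KDM2B shRNA, against 25.5, 30.6 and 30.5 TPM in scramble. SLC16A1 rose 1.65-fold in means, without overlap (0.70 ± 0.13 on the log2 scale, limma adjusted p = 0.0029). SLC16A3 (MCT4), the carrier that exports lactate from glycolytic cells and a known HIF target, was at 4.53, 5.14 and 4.03 TPM across the libraries labelled KDM2B shRNA, against 1.94, 1.95 and 1.38 TPM in scramble. It rose by 1.02 ± 0.20 (limma adjusted p = 0.00399), and every one of its scramble libraries was below 2 TPM.

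In upper glycolysis, where glucose is phosphorylated and split, 7 of 11 members rose and 0 fell as deposited (63.6% and 0%, against 33.3% and 17.6% of all genes). With trimmed-mean scaling 4 of the 11 rose and 2 fell, against 24.6% and 23.8% of all genes. Of the 4 that rose under all 4 scalings, HK2, PFKM and ALDOC were less abundant in TPM than HK1, PFKP and ALDOA of the same families, and PFKFB3 was more abundant than PFKFB4. HK1, the housekeeping hexokinase, was at 60.8 ± 0.67 TPM across the libraries labelled KDM2B shRNA and 59.9 ± 5.88 TPM in scramble (SD, n = 3 each), with overlapping groups. HK2, the inducible hexokinase of many tumours, was at 11.1, 13.3 and 11.8 TPM across the libraries labelled KDM2B shRNA, against 6.99, 6.5 and 6.18 TPM in scramble. HK2 was higher in every library labelled KDM2B shRNA, 1.84-fold in means (0.79 ± 0.13 on the log2 scale, limma adjusted p = 0.00199), and 0.65 with trimmed-mean scaling. Of the phosphofructokinases, which commit sugar to glycolysis, the platelet form PFKP was most abundant, at 353 ± 15.5 TPM across the libraries labelled KDM2B shRNA and 353 ± 3.74 TPM in scramble. The liver form PFKL was at 74.8 ± 2.15 TPM across the libraries labelled KDM2B shRNA and 75.5 ± 6.48 TPM in scramble. Neither passed (limma adjusted p = 0.991 and 0.932), but PFKP was called lower with trimmed-mean scaling (-0.15, adjusted p = 0.0292). The muscle form PFKM was at 72.8, 69.9 and 66.8 TPM across the libraries labelled KDM2B shRNA, against 47.5, 53 and 45.9 TPM in scramble. It rose 1.43-fold without overlap (0.51 ± 0.08, limma adjusted p = 0.00162), and the direction and call held under all 4 scalings.

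PFKFB3 and PFKFB4 make fructose 2,6-bisphosphate, the activator of phosphofructokinase, and both are known HIF targets. PFKFB3 was at 115, 106 and 112 TPM across the libraries labelled KDM2B shRNA, against 80.7, 82.7 and 80.7 TPM in scramble. The groups stood apart and PFKFB3 rose by 0.44 ± 0.06 (limma adjusted p = 0.000869). PFKFB4, at a much lower level, was at 6.69, 6.41 and 6.68 TPM across the libraries labelled KDM2B shRNA, against 3.27, 2.05 and 5.29 TPM in scramble. Its scramble libraries spread widely, and the rise of 0.81 ± 0.26 (limma adjusted p = 0.0349) was lost with each of the other scalings (adjusted p between 0.0577 and 0.082), with no filter on low values (0.0615) and without any single library other than scramble library 3 (0.0739 to 0.0837). GPI, the isomerase that follows hexokinase, was at 444 ± 1.73 TPM across the libraries labelled KDM2B shRNA and 477 ± 36.9 TPM in scramble. It did not pass as deposited (-0.10 ± 0.06, limma adjusted p = 0.197) and was lower with each of the other scalings (with trimmed-mean scaling -0.25 ± 0.05, adjusted p = 0.00764).

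ALDOA, the aldolase of muscle and most cultured cells, was at 581, 578 and 539 TPM across the libraries labelled KDM2B shRNA, against 479, 499 and 483 TPM in scramble. It did not overlap and rose by 0.22 ± 0.05 (limma adjusted p = 0.00693), an amount close to that of the median gene, and with trimmed-mean scaling the difference was 0.07 (adjusted p = 0.241). ALDOC, the aldolase best known from brain, was at 41.1, 43 and 35.3 TPM across the libraries labelled KDM2B shRNA, against 25.1, 20.9 and 18.7 TPM in scramble. ALDOC rose 1.84-fold in means, with every library labelled KDM2B shRNA above every scramble library (0.86 ± 0.13, limma adjusted p = 0.00133). TPI1, which interconverts the triose phosphates, was at 426 ± 13.4 TPM across the libraries labelled KDM2B shRNA and 352 ± 13.3 TPM in scramble (SD, n = 3 each). It rose by 0.28 ± 0.05 (limma adjusted p = 0.0028), and by 0.13 with trimmed-mean scaling, where it did not pass (adjusted p = 0.0641).

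In lower glycolysis, where ATP is made, 2 of 4 members rose as deposited (GAPDH and PGK1, with ENO2 left aside) and 0 fell, against 33.3% and 17.6% of all genes. With trimmed-mean scaling 1 of the 4 rose (GAPDH) and 1 fell (PKM), against 24.6% and 23.8% of all genes. GAPDH, the most abundant in TPM, rose under all 4 scalings. GAPDH, the glyceraldehyde phosphate dehydrogenase often used as a constant reference gene, was at 2178, 2098 and 2099.8 TPM across the libraries labelled KDM2B shRNA, against 1632, 1634 and 1504 TPM in scramble. All libraries labelled KDM2B shRNA exceeded all scramble libraries, and GAPDH rose 1.34-fold (0.42 ± 0.04, limma adjusted p = 0.000241; 0.27 with trimmed-mean scaling, adjusted p = 0.00117). PGK1, which makes the first ATP of the pathway, was at 425 ± 9.78 TPM across the libraries labelled KDM2B shRNA and 368 ± 15.7 TPM in scramble. Its rise of 0.20 ± 0.05 (limma adjusted p = 0.0106) fell short with trimmed-mean scaling (0.06, adjusted p = 0.306). ENO1, the ubiquitous enolase, was at 1320.0 ± 36.4 TPM across the libraries labelled KDM2B shRNA and 1198 ± 92.8 TPM in scramble and did not pass (0.14 ± 0.06, limma adjusted p = 0.0787). ENO1 passed without scramble library 1 (adjusted p = 0.0167) and turned to -0.01 with trimmed-mean scaling. PKM, pyruvate kinase, which ends the pathway, was at 339 ± 5.61 TPM across the libraries labelled KDM2B shRNA and 347 ± 23.1 TPM in scramble. Its difference of -0.03 ± 0.06 did not pass (limma adjusted p = 0.671), though PKM was lower with trimmed-mean scaling (-0.18, adjusted p = 0.0208). ENO2, the neuronal enolase and a HIF target, was listed at 2.45, 1.78 and 1.31 TPM across the libraries labelled KDM2B shRNA, against 0, 0.45 and 0.6 TPM in scramble. The level stayed under 3 TPM throughout, the groups did not overlap, and the difference was 1.09 ± 0.31, a description without a test, since ENO2 passed the filter only through the libraries labelled KDM2B shRNA. Genes of this pathway, GAPDH above all, have processed pseudogenes in mammalian genomes, and how reads shared with such copies were assigned is not given in the sources used here.

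At the fork after pyruvate, lactate dehydrogenase A rose and pyruvate dehydrogenase kinase 1 fell. LDHA, the form that favours lactate and a HIF target, was at 1076, 1056 and 1131 TPM across the libraries labelled KDM2B shRNA, against 786, 774 and 754 TPM in scramble. Every library labelled KDM2B shRNA was above every scramble library, and LDHA rose 1.41-fold (0.50 ± 0.04, limma adjusted p = 0.000107), with 0.35 under trimmed-mean scaling. LDHB, the form that favours pyruvate, was at 568 ± 18 TPM across the libraries labelled KDM2B shRNA and 504 ± 9.29 TPM in scramble. Its rise of 0.17 ± 0.04 (limma adjusted p = 0.0135) was close to that of the median gene and did not pass with trimmed-mean scaling (0.02, adjusted p = 0.697). PDK1, a HIF target that keeps pyruvate from becoming acetyl-CoA by phosphorylating pyruvate dehydrogenase, was at 29.8, 36.5 and 27 TPM across the libraries labelled KDM2B shRNA, against 62.1, 60.1 and 60.6 TPM in scramble. PDK1 was the member with the largest fall, to 0.51 of the scramble mean and without overlap (-0.96 ± 0.11, limma adjusted p = 0.000417), and the call held under every alternative tried. Its relatives, named after their values were seen, went different ways: PDK3 was at 27.7 ± 1.16 TPM across the libraries labelled KDM2B shRNA and 52.7 ± 8.93 TPM in scramble and fell (limma adjusted p = 0.000815). PDK4, the isoform induced by fasting, was at 10.7 ± 1.79 TPM across the libraries labelled KDM2B shRNA and 3.76 ± 1.12 TPM in scramble and rose (limma adjusted p = 0.00204). PDK2 was at 32 ± 1.83 TPM across the libraries labelled KDM2B shRNA and 38.3 ± 6.14 TPM in scramble and did not pass (limma adjusted p = 0.142).

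The HIF targets outside metabolism were split. NDRG1, a stress gene strongly induced by hypoxia in human cells, was at 271, 286 and 371 TPM across the libraries labelled KDM2B shRNA, against 411, 432 and 359 TPM in scramble. Library 3 labelled KDM2B shRNA reached into the scramble range. NDRG1 fell by 0.38 ± 0.12 on the log2 scale (limma adjusted p = 0.0341), and the call was lost without scramble library 1 or 2, without library 1 or 2 labelled KDM2B shRNA (adjusted p between 0.084 and 0.103), with no filter (0.0582) and without an intensity trend (0.0757). BNIP3, a mitophagy receptor, was at 25.5, 29.2 and 29.7 TPM across the libraries labelled KDM2B shRNA, against 17.1, 12.3 and 28.6 TPM in scramble. Scramble library 3 lay among the libraries labelled KDM2B shRNA, and the difference of 0.59 ± 0.26 did not pass (limma adjusted p = 0.0945). Without that library it was 0.91 (adjusted p = 0.00518). ANKRD37, a small HIF target of little known function, was at 15.2, 22.4 and 16.4 TPM across the libraries labelled KDM2B shRNA, against 9.78, 9.43 and 14.1 TPM in scramble. Its groups did not overlap and it rose by 0.65 ± 0.20 (limma adjusted p = 0.0263), but this call was lost with each of the other scalings (adjusted p between 0.0535 and 0.0766) and without scramble library 1 or 2 or library 2 labelled KDM2B shRNA (0.0749 to 0.0783). ADM, adrenomedullin, a vasodilator peptide, was at 132, 129.7 and 133 TPM across the libraries labelled KDM2B shRNA, against 113, 116 and 110.4 TPM in scramble. It stood above scramble in each library labelled KDM2B shRNA and rose by 0.22 ± 0.05 (limma adjusted p = 0.0128), against 0.07 with trimmed-mean scaling (adjusted p = 0.317).

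Shares within an isoform family compare genes inside 1 library, so a constant factor per library (as deposited, trimmed mean, or without the mitochondrially encoded genes) leaves them as they are, whereas quantile normalization does not. Each was tested by an exact two-sided permutation test over the 6 libraries, whose smallest possible p is 0.10, so none of the 10 shares could pass (0.111 after adjustment over the 10 for the 9 whose groups did not overlap). HK2 made up 15.6%, 17.8% and 16.2% of the hexokinase transcripts HK1 and HK2 in the libraries labelled KDM2B shRNA and 9.5%, 10.1% and 10.1% in scramble. The means were 16.5% ± 1.12% in the libraries labelled KDM2B shRNA and 9.88% ± 0.326% in scramble (SD, n = 3 each, exact p = 0.10). LDHA made up 64.7%, 65.7% and 66.6% of LDHA and LDHB in the libraries labelled KDM2B shRNA and 60.9%, 61% and 59.5% in scramble (exact p = 0.10). Both shares were higher in every library labelled KDM2B shRNA. ALDOC was 6.55% ± 0.388% of the aldolases in the libraries labelled KDM2B shRNA and 4.25% ± 0.661% in scramble, and SLC2A3 made up 9.36% ± 1.42% in the libraries labelled KDM2B shRNA and 2.26% ± 1.35% in scramble of the 2 glucose transporters. SLC16A3 made up 8.83% ± 1.18% in the libraries labelled KDM2B shRNA and 5.79% ± 1.38% in scramble of the lactate carriers. These 3 shares were also higher without overlap, and that of PFKP in the phosphofructokinases was lower without overlap, at 70.9% ± 0.545% in the libraries labelled KDM2B shRNA and 74% ± 0.894% in scramble. EPAS1 remained a small part of the alpha subunits, 1.43% ± 0.144% in the libraries labelled KDM2B shRNA and 0.591% ± 0.171% in scramble. ENO2 was 0.181%, 0.134% and 0.102% of ENO1 and ENO2 summed in the libraries labelled KDM2B shRNA and 0%, 0.0379% and 0.054% in scramble. The enolase ENO3, at means of 41.6 TPM in the libraries labelled KDM2B shRNA and 22.9 TPM in scramble, was not counted in that sum. Of PFKFB3 and PFKFB4 together, PFKFB4 made up 5.61% ± 0.112% in the libraries labelled KDM2B shRNA and 4.16% ± 1.88% in scramble, with overlapping groups (exact p = 0.40).

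**Figure D3:**
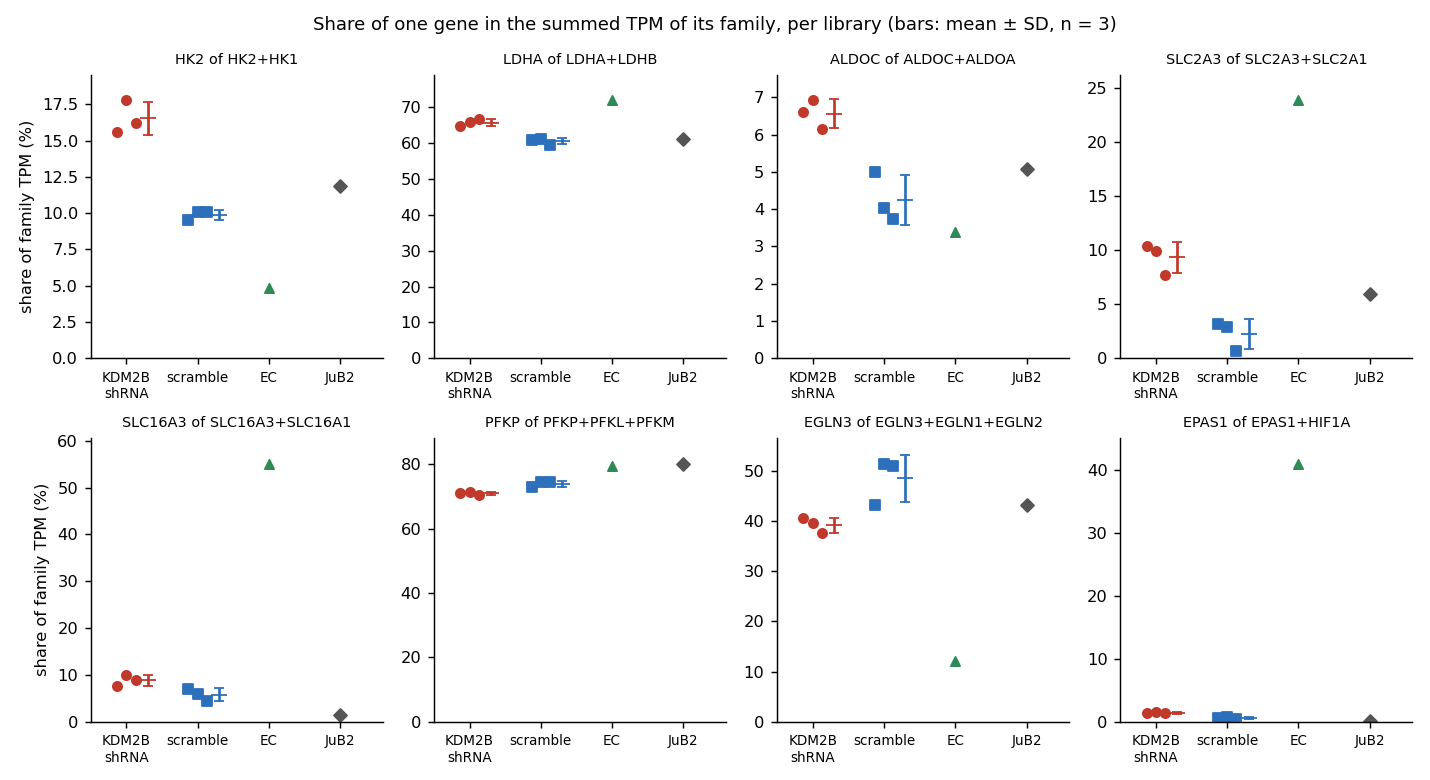
Share of 1 gene in the summed TPM of its family, in percent, for 8 of the 10 families, with 1 point per library and the mean ± SD beside groups of 3. In all 8 panels the libraries labelled KDM2B shRNA and scramble do not overlap. The library labelled EC differs most from JuB2 in EPAS1 (41.1% of the alpha subunits) and SLC16A3 (55.1% of the lactate carriers).

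The sum over glycolysis took the 16 enzymes among the members, from hexokinase to pyruvate kinase with LDHA and LDHB, without isoforms such as ENO3. It came to 8053, 7857 and 7828 TPM across the libraries labelled KDM2B shRNA and 6898, 6704 and 6380.1 TPM in scramble. The groups did not overlap, and the ratio of means was 1.19 (exact two-sided permutation p = 0.10, the smallest possible). With trimmed-mean scaling the ratio was 1.07, and with the mitochondrially encoded genes left out it was 1.11. GAPDH accounted for 535 of the 1252 TPM between the means, and lactate dehydrogenase for 380 TPM. By step, GAPDH had the highest ratio at 1.34, followed by lactate dehydrogenase at 1.3, triose phosphate isomerase at 1.21 and aldolase at 1.19. Glucose phosphate isomerase and pyruvate kinase were at 0.93 and 0.977, with overlapping groups. In every JuB2 library hexokinase was the step with the lowest summed level, between 61.5 and 74.7 TPM, and in the libraries labelled KDM2B shRNA phosphofructokinase was at 517, 499 and 478 TPM.

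**Figure D4:**
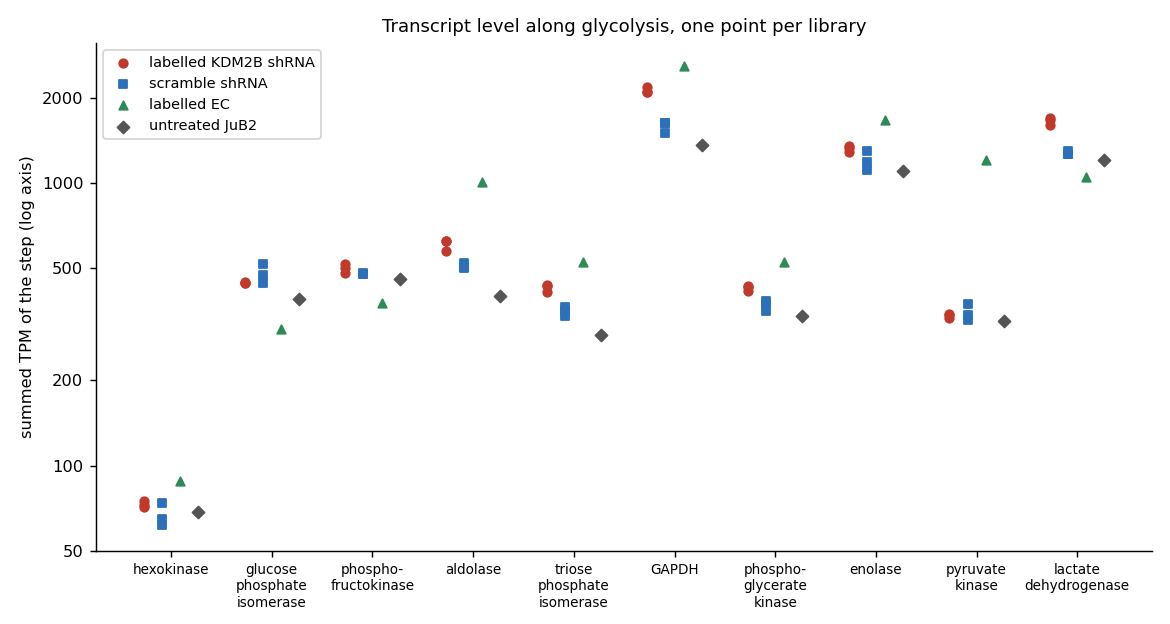
Summed TPM of the members of each glycolytic step (ENO3 not counted), in pathway order, on a log axis, with 1 point per library. GAPDH and lactate dehydrogenase show the clearest gap between the libraries labelled KDM2B shRNA and scramble. The library labelled EC is lowest at glucose phosphate isomerase, phosphofructokinase and lactate dehydrogenase and highest at the other steps.

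Genes around the pathway, from lists of related genes, were found in both directions. Of 26 further HIF targets tested, 7 rose, 6 fell and 13 did not pass, with a median of 0.00. These are 26.9% and 23.1%, near the 33.3% and 17.6% of all genes. With trimmed-mean scaling 5 rose and 10 fell, against 24.6% and 23.8% of all genes. DDIT4, an inhibitor of mTORC1, was at 19.9, 24.1 and 19 TPM across the libraries labelled KDM2B shRNA, against 66.3, 81.6 and 85.9 TPM in scramble. It fell without overlap (-1.84 ± 0.13, limma adjusted p = 5.83e-05). PLOD2, a collagen lysyl hydroxylase, fell to 20.8 ± 3.08 TPM, against 67.2 ± 3.36 TPM in scramble (-1.65 ± 0.12, limma adjusted p = 5.97e-05). VEGFA, the main angiogenic factor, fell by 0.95 on the log2 scale (limma adjusted p = 0.00081). ANGPTL4, a lipase inhibitor, rose to 47.5 ± 2.32 TPM, against 16.2 ± 2.79 TPM in scramble (limma adjusted p = 0.000117). CA9, carbonic anhydrase 9, a widely used marker of HIF activity named here after its values were seen, was at 19.6, 13.5 and 15.8 TPM across the libraries labelled KDM2B shRNA, against 4.54, 9.02 and 6.02 TPM in scramble. It rose by 1.23 ± 0.24 (limma adjusted p = 0.00391), while the collagen prolyl hydroxylase P4HA1, also named after its values were seen, was at 63.7 ± 3.32 TPM across the libraries labelled KDM2B shRNA and 68.7 ± 6.35 TPM in scramble and did not pass (limma adjusted p = 0.361).

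Of 7 further HIF regulators tested, 3 rose and 1 fell (42.9% and 14.3%, against 33.3% and 17.6% of all genes). With trimmed-mean scaling 3 of the 7 rose and 2 fell, against 24.6% and 23.8% of all genes. HSP90AA1, a chaperone that holds HIF alpha, was at 1582 ± 41.5 TPM across the libraries labelled KDM2B shRNA and 806 ± 12.1 TPM in scramble (0.97 ± 0.04, limma adjusted p = 7.38e-06). CREBBP, a coactivator, and ELOC, a subunit of the VHL ligase, rose by 1.07 and 0.39 (limma adjusted p = 0.000405 and 0.000479). ARNT2, the relative of ARNT, fell like it, with a log2 difference of -0.63 (limma adjusted p = 0.00893).

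Of a list of other carbohydrate enzymes and isoforms, 2 of 12 tested rose and 4 fell (16.7% and 33.3%, against 33.3% and 17.6% of all genes). The 4 include PGAM5 (-0.88 on the log2 scale, limma adjusted p = 0.00412). Despite its name PGAM5 is a protein phosphatase, not a carbohydrate enzyme, and it also counts among those lower with trimmed-mean scaling. With trimmed-mean scaling 2 of the 12 rose and 6 fell, against 24.6% and 23.8% of all genes, and quantile normalization gave the same counts for the list. Another 10 with a row were too low to test. PCK2, the mitochondrial enzyme that returns oxaloacetate to phosphoenolpyruvate, fell to 112 ± 7.31 TPM, against 244 ± 19 TPM in scramble (-1.12 ± 0.08, limma adjusted p = 5.49e-05). PGM1, which links glycogen to glycolysis, fell to 89.9 ± 7.6 TPM, against 172 ± 5.79 TPM in scramble (limma adjusted p = 9.23e-05). LDHD, a D-lactate dehydrogenase, fell and ENO3, the muscle enolase, rose, with log2 differences of -1.14 and 0.84 (limma adjusted p = 0.00117 and 0.0022).

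Pyruvate entry and the TCA cycle had 8 genes higher, 7 lower and 17 not passing of 32, with a median of 0.00 on the log2 scale. As deposited these are 25% and 21.9%, against 33.3% and 17.6% of all genes. Trimmed-mean scaling called 5 of the 32 higher and 13 lower, against 24.6% and 23.8% of all genes. CS, citrate synthase, which starts the cycle, rose to 279 ± 5.52 TPM, against 185 ± 9.3 TPM in scramble (0.59 ± 0.06, limma adjusted p = 0.000152). IDH1 and ACO1, the cytosolic isocitrate dehydrogenase and aconitase, and IDH3G, a subunit of the mitochondrial one, fell, with log2 differences of -0.81, -0.94 and -1.21 (limma adjusted p = 6.76e-05, 0.000266 and 0.000199). In the pentose phosphate pathway 2 of 9 rose and 3 fell (22.2% and 33.3%, against 33.3% and 17.6% of all genes). With trimmed-mean scaling 1 of the 9 rose and 3 fell, against 24.6% and 23.8% of all genes. PGD, its second dehydrogenase, was at 283 ± 14.9 TPM across the libraries labelled KDM2B shRNA and 429 ± 13.5 TPM in scramble (limma adjusted p = 0.000145), and PRPS2, which makes ribose pyrophosphate, at 121 ± 13.5 TPM across the libraries labelled KDM2B shRNA and 72.6 ± 4.31 TPM in scramble (limma adjusted p = 0.000668). TKT, transketolase, rose by 0.27 (limma adjusted p = 0.0114), a call lost with trimmed-mean scaling (adjusted p = 0.127), and RPE had a difference of -0.36 (limma adjusted p = 0.0352).

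Markers of cell types also differed between these libraries. The 19 endothelial markers with a row summed to 86.7, 87.5 and 82.9 TPM across the libraries labelled KDM2B shRNA and 53.4, 46.8 and 46.8 TPM in scramble, and 12 smooth muscle and fibroblast markers to 940.4, 874 and 867 TPM with the KDM2B shRNA label and 1717, 1700.1 and 1656 TPM in scramble. Of the 5 endothelial markers tested 4 rose and 0 fell (80% and 0%, against 33.3% and 17.6% of all genes). Another 14 with a row did not pass the filter on low values. Among these was ERG, at 9.22, 7.42 and 0 TPM across the libraries labelled KDM2B shRNA and at 0 in all scramble libraries. ENG, EGFL7, SOX18 and KDR rose, with log2 differences of 0.77, 0.86, 1.30 and 0.75. FLT1 did not pass (-0.09, limma adjusted p = 0.585). Of 9 smooth muscle and fibroblast markers tested 1 rose and 5 fell (11.1% and 55.6%, against 33.3% and 17.6% of all genes). Those that fell were led by COL1A2, COL1A1, TAGLN and ACTA2 (-1.55, -1.02, -2.54 and -1.45). For all of these the untreated library lay below every scramble library and above every library labelled KDM2B shRNA. TAGLN was at 75 TPM untreated, against 292, 309 and 273 TPM in scramble and 60.4, 38.2 and 52 TPM with the KDM2B shRNA label. COL3A1 rose (0.14, limma adjusted p = 0.0439), a call not made with trimmed-mean scaling (adjusted p = 0.926). The defining endothelial genes CDH5, TIE1, FLI1, EMCN, ECSCR, CD34 and SOX17 were listed at 0 in all 7 JuB2 libraries, and PECAM1 did not exceed 0.35 TPM in any. Of the 8 leukocyte markers, PTPRC stayed under 0.4 TPM, and CD79A, at 1617 to 2037 TPM in the replicated libraries, neighbours the abundant ribosomal gene RPS19 in the RefSeq table. Of the 2 leukocyte markers tested 1 rose and 0 fell (50% and 0%, against 33.3% and 17.6% of all genes). CD79A rose (0.17 ± 0.06, limma adjusted p = 0.044), a call not made with trimmed-mean scaling (adjusted p = 0.814). The other, LCP1, did not pass as deposited (-0.13 ± 0.08, limma adjusted p = 0.186) and was lower with each of the other scalings (-0.28 with trimmed-mean scaling, adjusted p = 0.0168). The only epithelial marker tested, CLDN4, did not pass (limma adjusted p = 0.958), and the 4 with a row summed to at most 4.33 TPM in any JuB2 library. The part of these markers in the differences of the members was not tested.

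The library labelled EC gave a second setting for the same genes, as a single library without a test. Its endothelial markers were mixed. ERG, ENG, FLI1, EMCN and TEK were at 21.9, 37, 4.43, 3.11 and 2.38 TPM in the library labelled EC, against 1.28 and 22 TPM and 0 for the other 3 in untreated JuB2. EGFL7 and KDR went the other way, at 1.93 and 1.24 TPM in the library labelled EC, against 11.4 and 4.77 TPM in untreated JuB2. CDH5 was listed at 0.64 TPM and the defining markers PECAM1, TIE1, VWF and CD34 at 0 in the library labelled EC, while ACTA2 held 5319, TAGLN 6546 and COL1A1 5334 TPM. The 12 smooth muscle and fibroblast markers summed to 33564 TPM there and to 1195 TPM in untreated JuB2, and the 19 endothelial markers to 87.9 TPM in the library labelled EC and 52.9 TPM in untreated JuB2. It is called the library labelled EC for that reason, and how far its cell type sets the values below was not tested. Of 31 members at 10 TPM or more in either library, 9 were at least 2-fold higher and 3 at least 2-fold lower in the library labelled EC than in untreated JuB2 on the log2(TPM + 1) scale, against 13.7% and 26.2% of the 8805 genes at that level (39.9% in either direction). Of the 9, EPAS1, ENO2, SLC16A3, SLC2A3 and ANKRD37 reached 10 TPM only in the library labelled EC, so the level rule fixed their direction. The count of 9 is therefore not to be read as an excess over the 13.7%. SLC2A1, BNIP3, PKM and ALDOA reached it in both libraries, as did the 3 lower members. The library labelled EC lay outside the range of untreated JuB2 and the 3 scramble libraries for 28 of the 31, against 85.4% of those genes.

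Of the 9 members higher in the library labelled EC, 1 was a HIF factor, 3 were transporters, 3 were enzymes and 2 were other HIF targets. EPAS1 held 93.3 TPM there and 0.14 TPM in untreated JuB2, which is 6.37 apart on the log2(TPM + 1) scale. ENO2 held 61.2 TPM and was listed at 0 in untreated JuB2. In the library labelled EC the carriers SLC16A3, SLC2A3 and SLC2A1 held 44.3, 20.4 and 65 TPM, against 0.45, 1.81 and 28.4 TPM in untreated JuB2. BNIP3 and ANKRD37 held 232 and 43.9 TPM in the library labelled EC, against 15.8 and 4.62 TPM in untreated JuB2. All 7 of these stood above each of the 3 scramble libraries as well. Among the enzymes, PKM and ALDOA held 1208 and 973 TPM in the library labelled EC, against 324 and 378 TPM in untreated JuB2. The 3 lower members, EGLN3, PDK1 and PFKM, held 12, 22.1 and 16.3 TPM in the library labelled EC, against 59.1, 63.8 and 38.9 TPM in untreated JuB2. HIF1A and LDHA, at 134 and 753 TPM in the library labelled EC and 148 and 736 TPM in untreated JuB2, were less than 2-fold apart. The alpha subunits were 41.1% EPAS1 in the library labelled EC and 0.0944% in untreated JuB2.

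**Figure D5:**
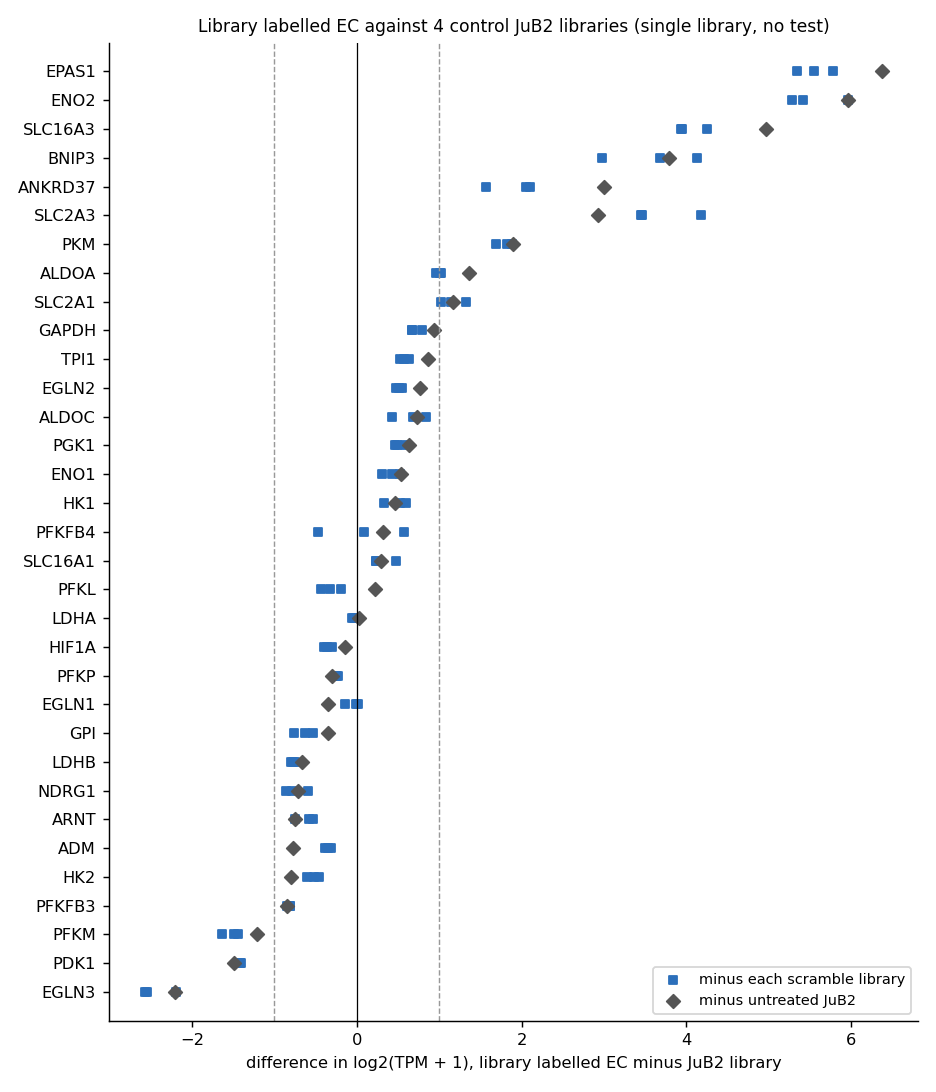
Difference in log2(TPM + 1) of each member, library labelled EC minus untreated JuB2 (diamonds) and minus each scramble library (squares). Dashed lines mark a 2-fold difference. EPAS1, ENO2, SLC16A3, BNIP3, ANKRD37 and SLC2A3 lie beyond 1.5 in all comparisons, and EGLN3, PDK1 and PFKM lie below -1.

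Scramble and untreated JuB2 cells were compared to see how the members stood in the controls. Of 27 members at 10 TPM or more, 1 was at least 2-fold apart, against 1.42% of the 8246 genes at that level. This was ANKRD37, at 9.78, 9.43 and 14.1 TPM in scramble and 4.62 TPM in the untreated library, and it no longer met the rule without scramble library 3. ANKRD37 reached 10 TPM only through the scramble mean, so the level rule fixed its direction. Smaller offsets were common: the untreated library lay outside the range of the 3 scramble libraries for 20 of the 27, against 68.3% of all genes at that level. For GAPDH scramble was at 1632, 1634 and 1504 TPM and the untreated library at 1355 TPM, and for ALDOA scramble was at 479, 499 and 483 TPM and the untreated library at 378 TPM. For both genes scramble lay above untreated cells. For ADM scramble was at 113, 116 and 110.4 TPM and the untreated library at 152 TPM, above the libraries labelled KDM2B shRNA as well, which held 132, 129.7 and 133 TPM. PDK1 and EGLN1 in the untreated library, at 63.8 and 50.9 TPM, were above the scramble libraries and thus farther from those labelled KDM2B shRNA. HK2, at 8.11 TPM untreated, lay between the scramble libraries and those labelled KDM2B shRNA.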

How the data were processed

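Libraries were made with the NEBNext Ultra RNA kit from column-purified RNA, by the labels' protocols. The authors deposited TPM, with 1 column per library, unpooled per the file headers. The submitters' processing notes name STAR, RSEM and the build CanFam3.1 without role or version. Use of strand and handling of shared reads are unknown. TPM holds no depth, so there was no count model, interval or floor, and a value at 0 can be a failed estimate.

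Genes reaching 1 TPM in 3 or more of the 6 replicated JuB2 libraries (11485) entered a limma 3.58.1 fit with intensity trend (R 4.3.3) on log2(TPM + 1). P-values were Benjamini-Hochberg adjusted over all of these genes, with a threshold of 0.05. Such differences understate the fold of low genes. In a single simulated draw, 65.4% and 65.3% of genes set 1 lower or higher on the log2 scale were called. Of those set 2 lower or higher 84.8% and 88.7% were called, and 8.43% of the calls were false. That draw changed far fewer genes than differed in the data, with 166 called against 5850 here, so its rates may not hold for the calls given here. Trimmed-mean scaling trimmed 30% of log ratios at either end. Single libraries were compared by size only (2-fold on log2(TPM + 1), at least 10 TPM in the higher). Shares and sums used exact permutation tests. Figures were drawn with matplotlib 3.10.9.

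The members, the 9 companion lists and the tests were chosen with earlier results of these data known. The text names all members and up to 4 genes of smallest p per list. Alternatives were 3 other scalings, 2 filters, pseudocounts of 0.1 and 5, no trend, 8 libraries in the fit, the replicate number as a block, and leaving out each replicate.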

Additional observations from a re-analysis of the deposited data

How the results depend on the processing

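Of the 23 members called, 12 kept their call under all of the 10 alternatives and 6 fits without 1 library in which they were tested, and the other 11 lost it in at least 1. The 12 include SLC2A3 and the 11 include ENO2, whose direction the filter fixed. The members called higher numbered 19, and 12 with trimmed-mean scaling or quantile normalization. Without SLC2A3 and ENO2 they numbered 17, 10 with trimmed-mean scaling and 11 with quantile normalization. Those called lower numbered 4, and 8 with trimmed-mean scaling. Leaving out 1 library gave 14 to 19 higher and 2 to 4 lower, with 2 lower without library 2 labelled KDM2B shRNA. Over all genes those fits called 3105 to 3491 higher and 1680 to 1856 lower. The genes called over the whole table numbered 5850 and ranged from 4961 to 5171 without 1 library. They split into 65.4% higher as deposited, 50.8% with trimmed-mean scaling, 51.5% with quantile normalization and 55.8% without the mitochondrially encoded genes. The cause of these shifts was not tested. The summed TPM of the glycolytic enzymes differed by 1252, by 505 with trimmed-mean scaling, 799.7 with quantile normalization, 860.2 without the mitochondrially encoded genes and 717 without GAPDH. The members 2-fold apart between the library labelled EC and untreated JuB2 numbered 12, and 7 at 4-fold, counting those that reached 10 TPM only in the library labelled EC. Between scramble and untreated JuB2 1 of 27 members was 2-fold apart, against 1.42% of all genes at that level, and 0 to 1 when 1 scramble library was left out.

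Signs turned only for members not called as deposited. On the log2 scale, trimmed-mean scaling gave -0.14 for HIF1A, -0.12 for HK1, -0.15 for PFKP and -0.0065 for ENO1. Quantile normalization gave -0.12 for HIF1A, -0.075 for HK1 and -0.0897 for PFKP, and leaving out the mitochondrially encoded genes -0.096 for HIF1A, -0.078 for HK1 and -0.103 for PFKP. Leaving out 1 library gave -0.026 to 0.0352 for HIF1A, -0.0307 to 0.101 for HK1, -0.0717 to 0.0508 for PFKL, -0.0267 to 0.0357 for PFKP and -0.0729 to 0.0199 for PKM.

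With the replicate number as a block, 5448 genes were called, 19 members higher and 3 lower, with calls lost for ENO2 and NDRG1 and gained for ENO1. Deviations of same-numbered libraries from their group means correlated at 0.0339, 0.0115 and -0.0464, and those of different numbers at -0.0574 to 0.0481. These values show no pairing by number, but with 3 libraries per group they cannot exclude it. Depth is unknown, which limits low genes such as EPAS1, SLC2A3 and ENO2 most.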
